A study of Apis mellifera with 20 samples.

Results

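In honeybee (Apis mellifera) larvae, 42 of 15314 gene models were at least 3-fold higher in queens than in workers at the fifth instar (L5) but differed by less at the third (L3). The 42 were chosen by their measured input levels, as follows. Both L5 queen input libraries had to reach 5 FPKM, and the lower L5 queen value plus 1 had to be at least 3 times the higher L5 worker value plus 1. FPKM is the number of fragments on a model after correction for its length and for the total mapped from the library. The L5 part of the rule found 53 models. Of these, 9 were left out because the mean L3 queen and mean L3 worker values, each plus 1, already differed by 3-fold or more in either direction. A further 2 were left out by name or scaffold. The same rule with the castes exchanged finds 87 models.

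The study compared 5 kinds of whole larvae from managed colonies: L1 larvae, whose caste is still open, then queens and workers of L3, and queens and workers of L5. Each kind has 2 input libraries of fragmented polyadenylated RNA and 2 IP libraries, in which fragments carrying N6-methyladenosine (m6A) were pulled down with an antibody. The labels give no age in days, no strain and no number of larvae per library, and all kinds are untreated. They do not say whether the 2 replicates came from separate larvae or colonies, so p-values measure the spread between these libraries, which may be technical.

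Both castes are female and start from the same kind of egg, and what the larva is fed decides whether it becomes a queen or a worker. The fifth is the last larval instar, in which most growth takes place, feeding ends and the cocoon is spun, and in which the hormones that time the molts differ between the castes. m6A is the commonest internal mark of messenger RNA, written by a methyltransferase complex and bound by reader proteins. The models carry only GB IDs, and the RefSeq gene table given for the species (12398 genes, Amel_HAv3.1) holds 0 of these 15314 IDs. No names, functions, sequences or cell markers are therefore given, and the 42 are ordered by how they behaved over the instars.

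The depth of the libraries is unknown, since whole reads could not be recovered from the FPKM values. The L5 input libraries list 8983 to 9532 models above 1 FPKM and 4292 to 5430 at 0, against 9335 to 10564 and 2993 to 3822 in those of L1 and L3. The order is turned in the IP libraries, where 1384 to 1734 models are listed at 0 at L5 and 2433 to 3667 at L1 and L3. Zeros may be failed estimates and are given as values listed at 0.

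The 42 genes together made up a small and then a larger share of the input. Their summed level was 1019.9 and 990.3 FPKM in the L1 libraries, 904 and 892 in those of L3 queens, 714 and 719 in those of L3 workers, 14676 and 15443.5 in those of L5 queens and 3143 and 2577 in those of L5 workers. In L5 queens this was 2.64% and 2.59% of all FPKM, against 0.594% and 0.466% in L5 workers. Most of it was the level of GB46222: without that gene the sums were 3817 and 4465 FPKM in L5 queens, against 638.6 and 638.4 FPKM in L5 workers. Because the samples are whole larvae, more cells of a type and more RNA per cell cannot be told apart here.

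The ratio that chose the genes, the lower queen value plus 1 over the higher worker value plus 1, lay between 3.02 and 13.7 with a median of 4.07. These values are the selection itself and are given as a description, with no test. GB47579 (Group16.5, 379281 to 384272, minus strand) and GB55965 (GroupUn86, 122897 to 123500, minus strand) were just inside the 3-fold limit. Positions are those of the deposited tables, whose genome build is not given in the sources used here. GB47579 stood at 19.95 and 18.8 FPKM in L5 queen input and 5.54 and 4.12 FPKM in L5 worker input. GB41911 lay just outside it, with 103 and 78.7 FPKM in L5 queens and 25.6 and 25.5 FPKM in L5 workers, and GB49809 had 232 and 122 FPKM in L5 queens and 36.5 and 40.6 FPKM in L5 workers. Near the minimum, GB43632 stood at 7.18 and 5.06 FPKM and GB52787 at 5.58 and 6.48 FPKM in L5 queen input. GB48636, with 4.98 and 4.92 FPKM in L5 queens, and GB52577, with 4.84 and 10.8 FPKM, just missed it. The mean L5 queen level of the 42 ran from 6.03 to 10919 FPKM with a median of 24.1. It reached 100 FPKM in 7 genes and stayed under 20 FPKM in 19. The mean L3 queen value plus 1 was 0.755 to 2.66 times that of L3 workers, with a median of 1.53, inside the bound the rule sets. This ratio was taken on FPKM as deposited. Factors that put the input libraries on a common scale were 1.26 and 1.17 for queens of L3. For workers of that instar they were 0.727 and 0.756, so the typical model also stood higher in the queen libraries as deposited. Whether the 42 leaned further to the queens than other models was not tested.

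Setting each L5 caste against the mean of the 4 L3 input libraries, with 1 added and a 3-fold limit, divided the genes by where the caste gap opened. In 21 of the 42, L5 queens were higher than L3 larvae while L5 workers stayed within 3-fold. In 10, L5 workers were lower than L3 larvae while L5 queens stayed within 3-fold. In 7, both L5 castes were higher than L3 larvae. Of the remaining 4, GB50870 and GB55965 stayed within 3-fold in both castes, GB49997 was higher in queens and lower in workers, and GB41623 was lower in both. Among the 5801 models with both L5 queen inputs at 5 FPKM or more, 3.45% had the first profile, 3.02% the second and 4.67% the third, but the rule's use of the L5 values makes an excess of the first 2 unavoidable. With FPKM divided by median-of-ratios factors, which put the libraries on a common scale, the first group held 19 genes and the second 8.

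**Figure D1:**
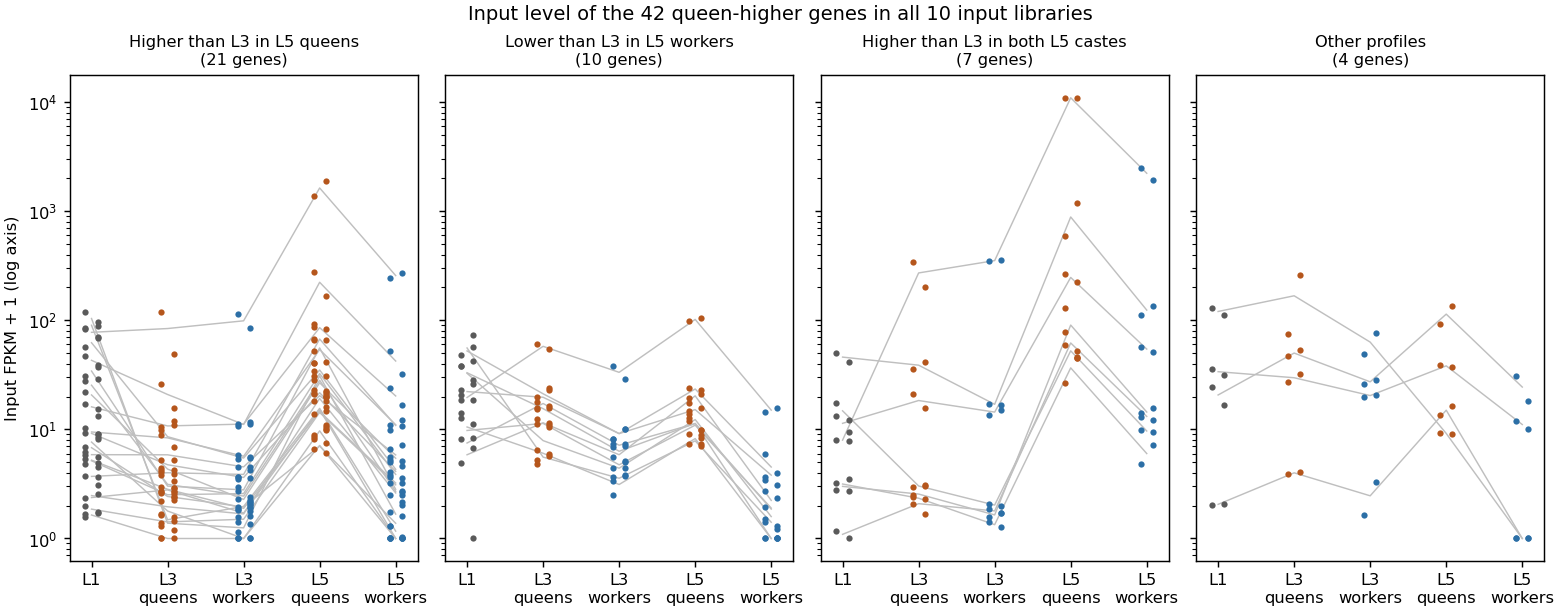
Input FPKM plus 1 (log axis) of the 42 genes in the 10 input libraries. Points are libraries, lines join the means of the 2 libraries of each kind, and the panels hold the 21 genes higher than L3 in L5 queens, the 10 lower than L3 in L5 workers, the 7 higher than L3 in both L5 castes and the other 4. In the third panel, GB46222 is the line that starts at 7.06 and 6.88 FPKM in L1 and ends at 10859 and 10979 FPKM in L5 queen input and 2504 and 1939 FPKM in L5 worker input.

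The genes that were higher than L3 in L5 queens had mean levels of 6.03 to 1628 FPKM in L5 queens, with a median of 25.7, and of 0 to 256 FPKM in L5 workers, with a median of 2.22. GB44043 (Group4.13, 1006784 to 1008437, minus strand) was the highest of them. It stood at 84.4 and 68.5 FPKM at L1, 118 and 47.7 in L3 queen input, 113 and 83.04 in L3 worker input, 1376 and 1880.2 in L5 queen input and 240.3 and 271 in L5 worker input. Every L5 library of either caste was thus above every earlier library, by far more in queens. GB45137 (Group11.18, 1781654 to 1788078, plus strand) stood at 45.7 and 38.2 FPKM at L1, 25.1 and 14.6 in L3 queen input, 10.1 and 10.1 in L3 worker input, 278 and 166 in L5 queen input and 51.5 and 31.1 in L5 worker input. Its L5 workers overlapped the L1 libraries. GB44370 (Group7.22, 835502 to 838985, plus strand) stood at 15.9 and 14.2 FPKM at L1, 9.47 and 10.04 in L3 queen input, 9.78 and 10.6 in L3 worker input, 86.2 and 82.8 in L5 queen input and 22.9 and 15.6 in L5 worker input. Here the L3 castes overlapped. GB41284 (Group5.18, 637663 to 638752, minus strand) was low and level before L5, at 2.49 to 3.24 FPKM in the 6 L1 and L3 libraries, and stood at 66.9 and 65.6 FPKM in L5 queen input, against 10.1 and 9.66 FPKM in L5 worker input. The other members of this group were GB40085, GB40850, GB41004, GB41722, GB41972, GB42815, GB43181, GB43632, GB44451, GB44453, GB46726, GB47579, GB49285, GB50234, GB52787, GB54430 and GB54483.

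In the genes that were lower than L3 in L5 workers, the L5 queen level was 0.924 to 2.34 times the L3 level and the L5 worker level 0.0819 to 0.33 times it, with 1 added to each. The L5 queens of these 10 were thus within 3-fold of L3, by the definition of the group. GB55964 (GroupUn86, 123776 to 124901, minus strand) was the highest, with 19.5 and 17.6 FPKM at L1, 59.4 and 53.9 in L3 queen input, 36.7 and 27.9 in L3 worker input, 96.8 and 105 in L5 queen input and 13.4 and 14.6 in L5 worker input. Both of its L5 queen libraries were above every L3 library. GB50677 (Group13.5, 5242 to 16031, plus strand) stood at 46.9 and 55.8 FPKM at L1, 18.6 and 21.8 in L3 queen input, 7.24 and 9.04 in L3 worker input, 23.1 and 21.8 in L5 queen input and 4.95 and 2.09 in L5 worker input. In GB50677 the L5 queens stood close to the L3 queens and the L5 workers below all other libraries. GB51196 (Group6.1, 100919 to 102146, minus strand) stood at 3.94 and 5.76 FPKM at L1, 11.5 and 9.43 in L3 queen input, 6.32 and 3.39 in L3 worker input and 18.4 and 20.2 in L5 queen input, against 2.47 FPKM and a value listed at 0 in L5 workers. Its L5 queens too were above every L3 library. The others were GB42657, GB43177, GB43472, GB47037, GB47513, GB49258 and GB51238.

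The 7 genes that were higher than L3 in both L5 castes had L5 queens at 15.1 to 43.0 times and L5 workers at 3.26 to 7.13 times the L3 level, with 1 added. GB46222 (Group15.5, 444035 to 445844, plus strand) stood at 7.06 and 6.88 FPKM at L1, 339 and 201 in L3 queen input, 349.9 and 352 in L3 worker input, 10859 and 10979 in L5 queen input and 2504 and 1939 in L5 worker input. It was the highest of the 42 in all 4 L5 input libraries. GB41760 (Group8.9, 1393236 to 1395514, minus strand) stood at 49.6 and 40.3 FPKM at L1, 35.1 and 40.4 in L3 queen input, 16.2 and 15.7 in L3 worker input, 589.6 and 1175 in L5 queen input and 111 and 135 in L5 worker input. GB43560 (Group14.9, 1303717 to 1304499, minus strand) stood at 12.3 and 8.41 FPKM at L1, 19.96 and 14.8 in L3 queen input, 12.6 and 14.2 in L3 worker input, 266 and 225 in L5 queen input and 56.4 and 50.4 in L5 worker input. GB41097, GB42685, GB47141 and GB51815 completed the group; GB42685 (Group9.10, 1707618 to 1710643, minus strand) was at or under 2.03 FPKM in the 4 L3 libraries, and stood at 128 and 50.7 FPKM in L5 queen input, against 12.01 and 14.8 FPKM in L5 worker input.

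The remaining profiles were each held by 1 or 2 genes. GB41623 (Group14.15, 951156 to 951872, minus strand) was high early and low late: it stood at 128 and 111 FPKM at L1, 74.02 and 259 in L3 queen input, 47.9 and 76.2 in L3 worker input and 8.21 and 8.14 in L5 queen input, and was listed at 0 in both L5 worker libraries. GB49997 (Group15.19, 2252878 to 2268378, minus strand) stood at 2.90 and 3.09 FPKM in L3 queen input, 0.630 and 2.29 in L3 worker input and 12.7 and 15.3 in L5 queen input, and was also listed at 0 in both L5 worker libraries. GB50870 (GroupUn240, 32571 to 33451, minus strand) stayed within 3-fold of L3 in both castes, with 26.2 and 31.3 FPKM in L3 queen input, 18.9 and 19.9 in L3 worker input, 37.95 and 36.4 in L5 queen input and 11.01 and 9.14 in L5 worker input. GB55965 stood at 45.6 and 52.4 FPKM in L3 queen input, 25.1 and 27.5 in L3 worker input, 91.6 and 134 in L5 queen input and 29.5 and 17.3 in L5 worker input.

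In all, 7 of the 42 genes were listed at 0 in both L5 worker inputs: GB40850, GB41004, GB41623, GB42657, GB43177, GB43632 and GB49997. The same was true of 0.121% of the 5801 models, and the rule favours such genes. Their L5 queen means were low, with a median of 8.69 FPKM and a highest of 14.2 FPKM.

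The genes were spread over 33 of the 1653 scaffolds, 20 on the plus and 22 on the minus strand, with 8 scaffolds holding 17 of them. Only 2 pairs were direct neighbours in the order of models. GB55965 and GB55964 lie on GroupUn86 on the same strand, 275 bp apart. In both genes L3 queens were above L3 workers, L1 was below both L3 castes, and L5 queens were the highest. They parted in L5 workers, where GB55965 overlapped its L3 workers and GB55964, with 13.4 and 14.6 FPKM, was below its L1 and L3 libraries. GB42815 (Group9.10, 1706938 to 1708082, plus strand) and GB42685 lie on opposite strands of Group9.10 and overlap by 465 bp, and the library kit does not mark strand, so reads from the overlap cannot be assigned and both values are uncertain. Their courses nevertheless differed, since GB42815 stood at 27.02 and 12.3 FPKM at L1 and 3.43 and 3.22 in L3 queen input, while GB42685 stood at 2.26 and 1.75 FPKM at L1 and 1.08 and 2.03 in L3 queen input. GB44453 and GB44451 share Group5.14 and a strand, 4118 bp apart with 1 model between them. Another model overlaps 8 of the 42, namely GB42685, GB42815, GB43181, GB44043, GB46726, GB49285, GB50234 and GB54483. The models span 126 to 30282 bp, with a median of 2219.5 bp against 3073 bp for the 5801 models. Spans under 1000 bp were held by 8 of the 42, or 19.0%, against 10.3% of the 5801.

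L1 was not used by the rule, and many of these genes were high there. In 13 of the 42, or 31.0%, the mean L1 level plus 1 was at least 3 times the mean L3 level plus 1, against 2.09% of the 5801 models and 2 of the 87 models (2.30%) chosen with the castes exchanged. These shares are a description, with no test, and with scaled FPKM the count was 10 of the 42. Of these 13, GB40085, GB40850, GB42815, GB43181, GB44451, GB44453, GB46726 and GB52787 belong to the genes higher than L3 in L5 queens, GB47037, GB47513, GB50677 and GB51238 to those lower than L3 in L5 workers, and GB47141 to those higher in both L5 castes. By the definitions used, the L1 mean of these genes was above the L3 mean. In the first of these groups the L5 queen mean was also above it, and the L5 worker mean within 3-fold of it. This course restates the choice of the genes and is no further result. Not all were high in level: GB40850 and GB52787 had mean L1 levels of 6.65 and 5.79 FPKM, and mean L5 queen levels of 8.69 and 6.03 FPKM. In 7 of the 13 the mean L1 level was above the mean L5 queen level. Only GB46222 was at least 3-fold lower at L1 than at L3, and in 28 the 2 were within 3-fold.

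GB43181 (Group11.20, 149220 to 155060, plus strand) stood at 117 and 88.2 FPKM at L1, 0.303 and 0.460 in L3 queen input, 0.149 and 0.355 in L3 worker input, 39.7 and 20.1 in L5 queen input and 0.308 and 1.04 in L5 worker input. GB40085 (Group13.7, 1024191 to 1027676, minus strand) stood at 82.98 and 94.8 FPKM at L1, 0.388 and 0.582 in L3 queen input, 0.925 and 1.01 in L3 worker input, 20.3 and 8.83 in L5 queen input and 0.306 and 0.0302 in L5 worker input. In both genes every L1 library was above every L5 queen library, and L5 workers were near or under 1 FPKM. GB44453 (Group5.14, 2167135 to 2167776, minus strand) stood at 30.00 and 36.4 FPKM at L1, 1.71 and 2.33 in L3 queen input, 2.64 and 0.940 in L3 worker input and 90.8 and 18.7 in L5 queen input, against a value listed at 0 and 3.65 FPKM in L5 workers. GB46726 (Group5.9, 211244 to 215048, minus strand) stood at 55.3 and 67.1 FPKM at L1, 4.20 and 10.9 in L3 queen input, 4.31 and 4.60 in L3 worker input, 50.7 and 17.2 in L5 queen input and 4.05 and 2.56 in L5 worker input. The L5 queen libraries of these 2 genes were far apart, with replicate 1 the higher. GB47037 (Group3.15, 278140 to 308421, plus strand) stood at 37.4 and 72.02 FPKM at L1, 4.24 and 4.90 in L3 queen input, 2.34 and 2.79 in L3 worker input, 6.29 and 7.40 in L5 queen input and 0.513 and 0.305 in L5 worker input. Both L5 worker inputs were below both L1 inputs in 25 of the 42 genes, on FPKM as deposited. The rule asks for low L5 worker input, and the share over all models was not computed. Scaling factors were also larger for the L1 inputs (1.57 and 1.40) than for those of L5 workers (0.916 and 0.782). The count is therefore only a description.

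**Figure D2:**
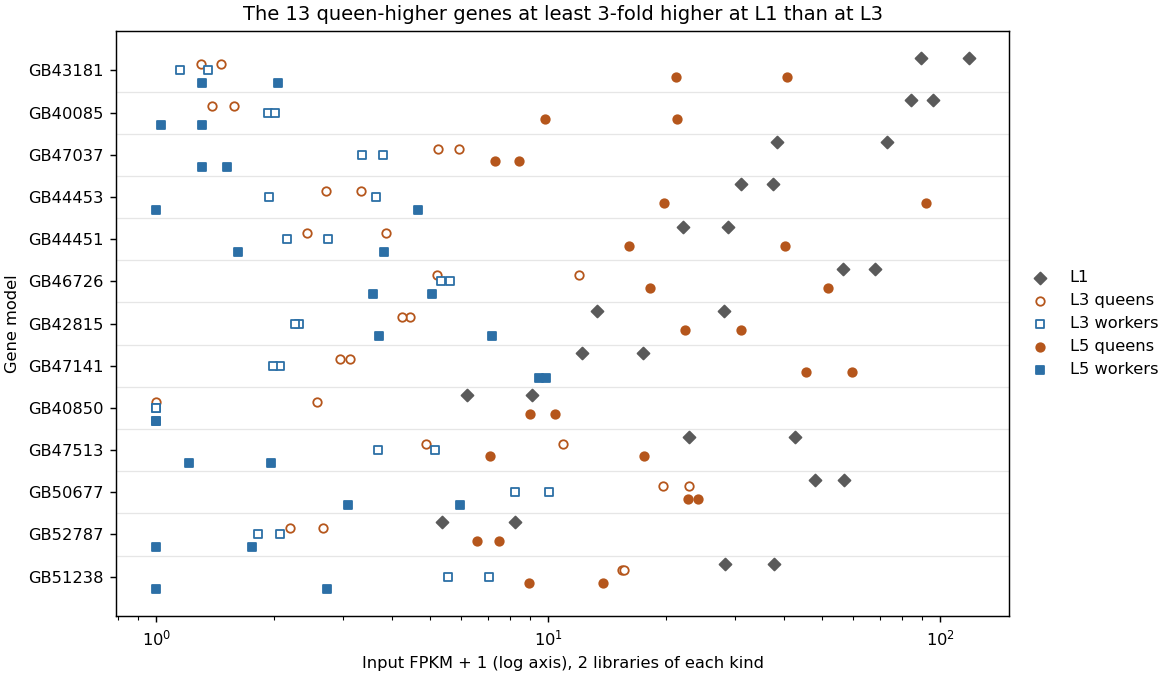
Input FPKM plus 1 (log axis) of the 13 genes at least 3-fold higher at L1 than at L3, 2 libraries of each kind. Diamonds are L1, open symbols L3, filled symbols L5, circles queens and squares workers; the L1 libraries lie to the right of the L3 libraries and the L5 queen circles to the right of the L5 worker squares, as the choice of the genes sets.

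L3 larvae of each caste were tested against L1 with limma on log2(scaled FPKM + 1) in the 6 L1 and L3 input libraries, with p-values adjusted over 10147 models. Differences are in log2 units of that scale, with n = 2 libraries per kind. In L3 queens 15 of the 38 genes tested were lower than in L1 and 5 were higher, where the shares over all models were 11.2% lower and 10.8% higher. In L3 workers 18 of the 38 were lower and 7 higher, where 21.0% of all models were lower and 20.0% higher. The median difference of the 38 was -0.26 in L3 queens and -0.41 in L3 workers, against -0.02 and -0.05 over all models. The 13 genes named above were chosen for their L1 level in these same libraries, so that they were called lower in both castes restates that choice and is no further result. The 2 comparisons share the L1 libraries, so they are not independent. Of the 42, GB41097, GB41722, GB41972 and GB43632 fell under the filter on low values and were not tested, and of the 38 tested GB40085, GB40850, GB43181 and GB51815 passed it through L1 alone and GB49997 through L3 alone, their other mean being under 1. Of the 33 with both means at or above 1, 12 were lower and 5 higher in L3 queens, and 14 were lower and 7 higher in L3 workers.

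GB46222 rose the most, being higher in L3 queens by 5.28 ± 0.21 log2 units (SE, limma adjusted p = 3.84e-05) and in L3 workers by 6.40 ± 0.21 log2 units (SE, limma adjusted p = 6.68e-06). GB55964, the next, was higher in L3 queens by 1.83 ± 0.16 log2 units (SE, limma adjusted p = 0.000717) and in L3 workers by 1.72 ± 0.16 log2 units (SE, limma adjusted p = 0.000462). The neighbour of GB55964, GB55965, was higher too, by 1.57 ± 0.18 log2 units (SE, limma adjusted p = 0.00169) in L3 queens. The lowest differences were those of GB43181, -5.82 log2 units in L3 queens and -5.81 in L3 workers, and GB40085, -5.53 in L3 queens and -4.78 in L3 workers. Both genes were among the 13 and entered through L1 alone, so a fall was set by how they came to be tested, and the sizes are given as a description. Without replicate 1 of the L3 queen input, the count in queens was 9 lower and 4 higher, and with all kinds of larvae in 1 fit it was 8 lower and 4 higher. These directions are relative to the typical model. On FPKM as deposited the median of all models moved by -0.27 in queens and -0.86 in workers. The split in workers on that scale became 2 higher and 26 lower, where 611 of all models were higher and 7320 lower. GB44370, higher in L3 workers by 0.40 ± 0.13 log2 units (SE, limma adjusted p = 0.0489), was lower on that scale, at -0.52 log2 units.

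The IP libraries were not used by the rule, so the caste difference at L5 was tested in them. They may have been made from the same RNA as the inputs, so they are other libraries but perhaps not other larvae. In a limma fit of the 4 L5 IP libraries, 29 of the 42 genes were higher in L5 queens and 0 were lower. Of the 10957 models tested, 1.25% were higher and 2.09% lower. At an unadjusted p under 0.05 in either direction, 32 of the 42 passed, against 17.0% of all models tested. The median difference over the 42 was 1.91 log2 units, against 0.0022 over all models, and 39 of the 42 were above 0. Both queen IP libraries were above both worker IP libraries in 35 of the 42, against 17.0% of all models tested, and 6 of these 35 did not pass the test. Without L5 worker IP replicate 2 only 5 of the 42 were called, namely GB41760, GB43632, GB44043, GB47141 and GB51815, and without any filter on low values 18 were. Leaving out any 1 of the 4 libraries gave 5 to 30 calls. Of the 29 called, GB43181, GB43632 and GB49997 had a mean under 1 FPKM in worker IP and entered the test through the queens alone, so they had to differ; 26 were called without them.

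The ratio of mean queen to mean worker IP level, with 1 added, was 2.27 to 16.3 in the 29 genes, with a median of 5.77. GB43181 stood at 44.7 and 15.2 FPKM in the L5 queen IP libraries, against 1.44 and 0.361 FPKM in those of L5 workers. Its difference was 3.98 log2 units, given as a description because it entered through the queens alone. GB44453 stood at 66.2 and 12.5 FPKM in queens, against 2.95 and 1.41 FPKM in workers, a difference of 3.36 ± 0.64 log2 units (SE, limma adjusted p = 0.0286). Its queen libraries were far apart, and the call was lost with a pseudocount of 5 or without the filter. GB51815 (Group1.14, 299518 to 306536, minus strand) stood at 43.7 and 60.5 FPKM in queens, against 4.96 and 5.82 FPKM in workers, a difference of 3.11 ± 0.30 log2 units (SE, limma adjusted p = 0.00242). GB41760 stood at 534 and 782 FPKM in queens, against 90.98 and 81.7 FPKM in workers, a difference of 2.98 ± 0.31 log2 units (SE, limma adjusted p = 0.00272). The replicates of each caste were close in these 2 genes. GB44043 stood at 1639.8 and 2227 FPKM in queens, against 307 and 353 FPKM in workers, a difference of 2.62 ± 0.31 log2 units (SE, limma adjusted p = 0.00482). GB46222 stood at 11689.6 and 14531 FPKM in queens, against 3979.7 and 3038 FPKM in workers, a difference of 1.99 ± 0.25 log2 units (SE, limma adjusted p = 0.0059). These were the 2 genes with the highest IP levels, and their castes were apart in both replicates. At the low end of the called genes, GB41972 stood at 8.01 and 8.31 FPKM in queens, against 3.42 and 2.66 FPKM in workers, a difference of 1.26 ± 0.25 log2 units (SE, limma adjusted p = 0.0354). GB47513 stood at 15.3 and 9.14 FPKM in queens, against 4.89 and 2.60 FPKM in workers, a difference of 1.56 ± 0.33 log2 units (SE, limma adjusted p = 0.0419).

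**Figure D3:**
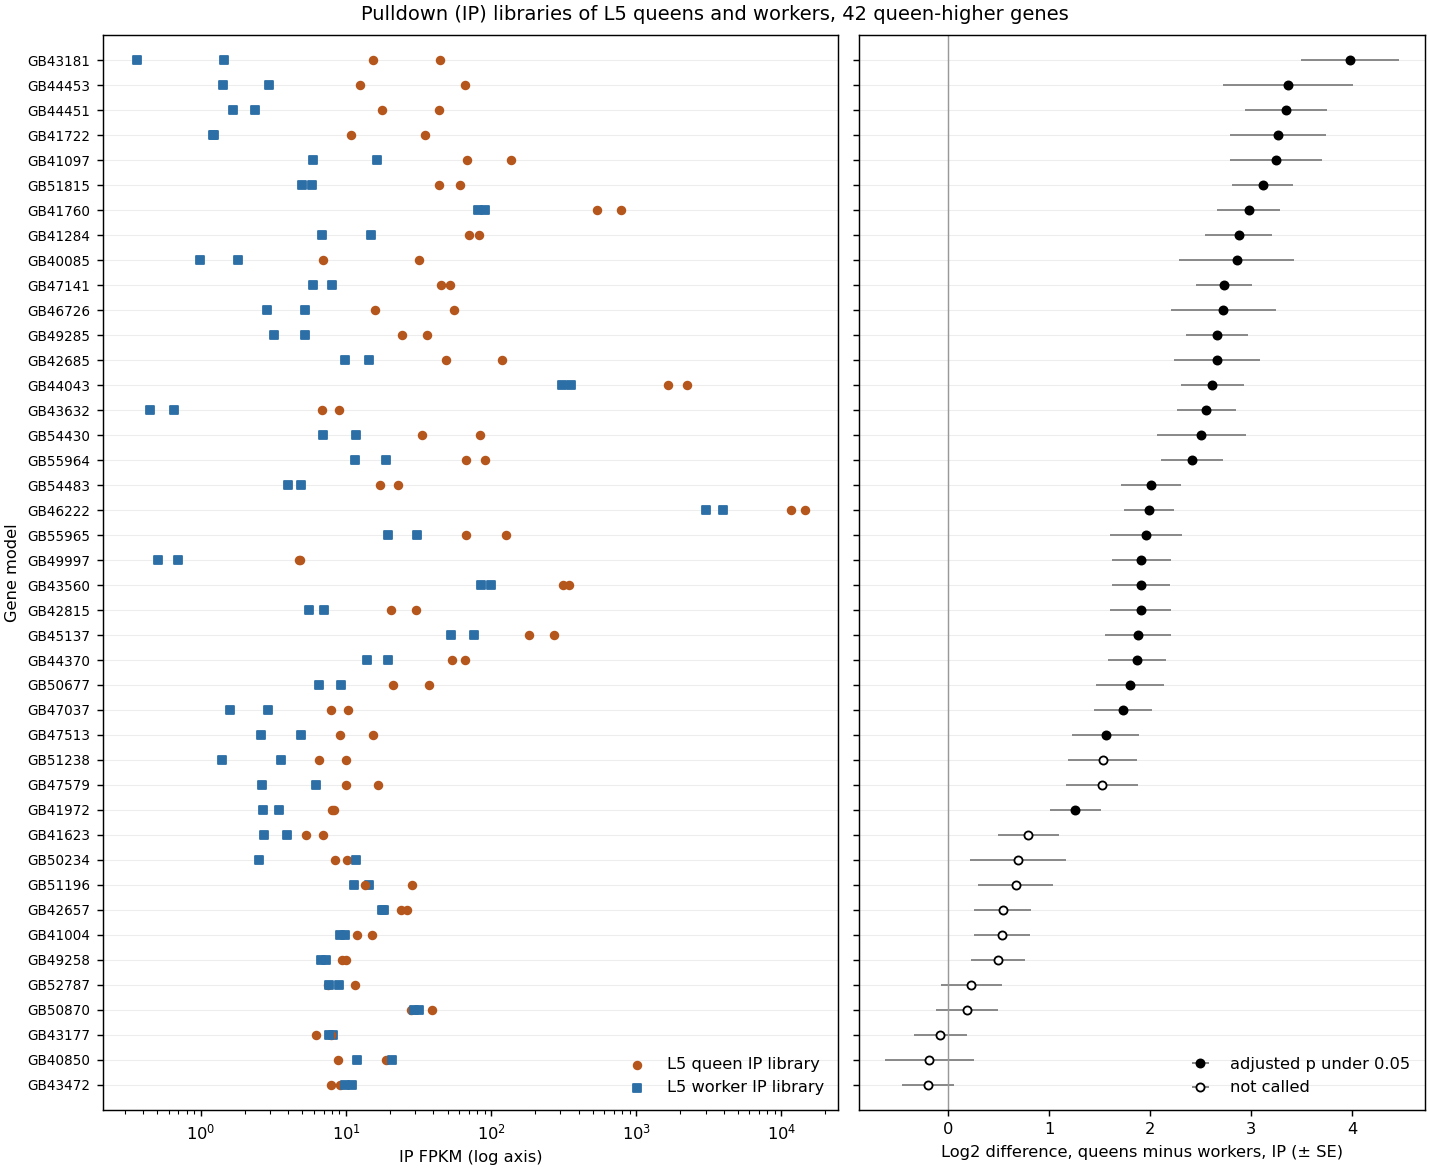
IP levels of the 42 genes at L5. Left, FPKM (log axis) in the 2 L5 queen libraries (circles) and the 2 L5 worker libraries (squares); right, the limma log2 difference of queens minus workers with its standard error, filled where the adjusted p was under 0.05. The 29 filled genes have both circles to the right of both squares, and the difference falls to about 0 in the lowest genes, where the 2 castes overlap.

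By profile, all 7 genes higher than L3 in both L5 castes were called, as were 16 of the 21 higher in L5 queens, 10 of the 13 high at L1, 4 of the 10 lower in L5 workers and GB49997 and GB55965. By worker input, 26 of the 31 genes with a value above 0 in both L5 worker inputs were called, 1 of the 4 with 1 value at 0, and 2 of the 7 with both at 0. These counts were not tested against each other. Of the 7, the 2 called had entered the test through the queens alone. GB43632 stood at 6.84 and 8.91 FPKM in queen IP, against 0.447 and 0.648 FPKM in worker IP. GB49997 stood at 4.81 and 4.76 FPKM in queen IP, against 0.690 and 0.502 FPKM in worker IP. The other 5 were GB40850, GB41004, GB41623, GB42657 and GB43177.

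The 13 genes not called were GB40850, GB41004, GB41623, GB42657, GB43177, GB43472, GB47579, GB49258, GB50234, GB50870, GB51196, GB51238 and GB52787. The rule asks for low L5 worker input, and these 13 were set apart for lacking a called difference in IP, so worker IP levels above worker input levels follow from how they were chosen and are given as a description. The median of their mean levels was 9.66 FPKM in L5 queen IP and 10.3 FPKM in L5 queen input, and 8.26 FPKM in L5 worker IP and 0.86 FPKM in L5 worker input. GB42657 (Group9.10, 2056163 to 2056452, minus strand) was listed at 0 in both L5 worker inputs. It stood at 26.2 and 23.8 FPKM in queen IP, against 18.2 and 17.6 FPKM in worker IP. GB43177 (Group11.20, 119227 to 119667, plus strand), also listed at 0 in both worker inputs, stood at 6.17 and 7.85 FPKM in queen IP, against 8.11 and 7.61 FPKM in worker IP. GB40850 (Group1.10, 1131870 to 1133808, plus strand), listed at 0 in the same inputs, stood at 18.8 and 8.85 FPKM in queen IP, against 11.9 and 20.8 FPKM in worker IP. The castes were close or overlapped in IP in these 3 genes. In GB40850, GB43177 and GB43472 the mean worker IP level was at or above the mean queen IP level. The 13 hold 5 of the 8 genes that span under 1000 bp.

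The L5 caste difference in IP was then set against that of L3, in a limma fit of 8 IP libraries with 1 variance weight per instar. It was larger at L5 in 24 of the 42 genes and smaller in 0. Of the 10421 models tested, 3.71% had a larger difference and 2.83% a smaller one. On FPKM as deposited, 23 of the 42 had a larger difference and 1 a smaller one. On that scale 212 of all models had a larger difference and 1560 a smaller one, and the median of all models had shifted by -0.56. Of the 24, GB43181 and GB43632 entered the test through L5 queen IP alone, and 22 were called without them. The rule bounds the L3 difference in the input, so a part of this contrast was set by the choice of genes. The median over the 42 was 1.80 log2 units, against 0.03 over all models, and all 24 belong to the 29 called at L5. GB44453 stood at 0.344 and 0.453 FPKM in L3 queen IP, against 0.722 and 1.04 FPKM in L3 worker IP, and its difference between instars was 4.03 ± 0.73 log2 units (SE, limma adjusted p = 0.0133). GB43181 stood at 0.166 and 0.176 FPKM in L3 queen IP, against 0.146 and 0.0692 FPKM in L3 worker IP, with a difference between instars of 3.93 log2 units, a description for the same reason. Both genes were near the floor in either caste at L3. The smallest called were those of GB41972, 1.49 ± 0.33 log2 units (SE, limma adjusted p = 0.0293), and GB55965, 1.57 ± 0.38 log2 units (SE, limma adjusted p = 0.041). GB46222 had both L3 queen IP libraries below both L3 worker ones, with 198 and 101 FPKM in L3 queen IP, against 218 and 202 FPKM in L3 worker IP, and had a difference of 3.16 ± 0.44 log2 units (SE, limma adjusted p = 0.00426). Without L5 worker IP replicates 1 and 2 the count was 12 and 7, and without the filter 14. GB41284 was called at 1.72 ± 0.34 log2 units (SE, limma adjusted p = 0.0185), but with a pseudocount of 0.1 its difference was -0.76 log2 units and was not called.

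IP was compared with input at L1 and L3, in the 12 libraries of those larvae. The values cover whole gene models, so single m6A sites cannot be seen, and without a pulldown lacking the antibody the ratio is not a measured m6A level. In L1 larvae 10 of the 39 genes tested were higher in IP than in input and 12 lower, where the shares over all 10167 models were 29.3% higher and 31.3% lower. In L3 queens 9 were higher and 8 lower, where 28.4% of all models were higher and 30.6% lower. In L3 workers 8 were higher and 9 lower, where 28.5% of all models were higher and 33.0% lower. Over the 3 kinds, 8 genes were higher in IP each time, 7 were lower each time, 17 were called in none, and 0 were higher in 1 kind and lower in another. The shares of these joint patterns over all models were not computed, so the counts are a description. These counts come from a fit that does not pair IP with input by replicate number. With that number as a block, 15 of the 39 were higher and 15 lower at L1, where 37% of all models were then higher and 39.1% lower. In L3 queens 13 were higher and 11 lower, where 36.6% of all models were higher and 38.6% lower. The L3 worker count was 28 of 39, 14 in each direction or 35.9%, where 36.1% of all models were then higher and 40.6% lower. With the block more of the 39 were thus called in each kind, so fewer than 17 would be called in none. The joint patterns were not counted with the block. On FPKM as deposited the split at L1 was 6 higher and 14 lower, where 1817 of all models were higher and 5069 lower. In L3 queens it was 6 higher and 12 lower, where 2007 of all models were higher and 4294 lower. The median of all models had shifted by -0.52 at L1 and -0.33 in L3 queens.

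The genes most enriched in IP were the same 4 in each kind. GB42657 stood at 225 and 213 FPKM in L1 IP, against 12.99 FPKM and a value listed at 0 in L1 input, a difference of 6.15 ± 0.76 log2 units (SE, limma adjusted p = 0.000121). GB52787 (Group14.14, 928190 to 930000, plus strand) stood at 95.01 and 117 FPKM in L1 IP, against 4.36 and 7.22 FPKM in L1 input, a difference of 4.48 ± 0.29 log2 units (SE, limma adjusted p = 2.71e-06). Both were far above their input in either replicate. GB41004 (Group4.11, 462590 to 462715, plus strand), the shortest of the 42, stood at 25.7 and 52.5 FPKM in L3 queen IP, against 1.65 and 1.93 FPKM in L3 queen input, a difference of 4.04 ± 0.68 log2 units (SE, limma adjusted p = 0.000799). In L3 workers GB41004 differed by 5.52 ± 0.68 log2 units (SE, limma adjusted p = 0.000112). GB40850 stood at 17.7 and 15.9 FPKM in L3 worker IP and was listed at 0 in both L3 worker inputs, with a fitted difference of 4.72 ± 0.38 log2 units (SE, limma adjusted p = 8.76e-06) that depends on the pseudocount. In L3 queens GB40850 differed by 3.82 ± 0.38 log2 units (SE, limma adjusted p = 3.43e-05).

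Among the genes depleted in IP were the neighbours GB55965 and GB55964. GB55965 stood at 3.74 and 3.34 FPKM in L1 IP, against 23.5 and 15.9 FPKM in L1 input, a difference of -1.60 ± 0.17 log2 units (SE, limma adjusted p = 4.09e-05), and it differed in L3 queens by -1.47 ± 0.17 log2 units (SE, limma adjusted p = 6.88e-05). In L3 workers GB55964 stood at 7.16 and 8.09 FPKM in IP, against 36.7 and 27.9 FPKM in input, a difference of -1.74 ± 0.14 log2 units (SE, limma adjusted p = 1.05e-05). GB55965 differed there by -1.74 ± 0.17 log2 units (SE, limma adjusted p = 2.28e-05). GB51238 (GroupUn12, 95933 to 101644, plus strand) stood at 9.32 and 6.33 FPKM in L1 IP, against 36.7 and 27.3 FPKM in L1 input, a difference of -1.34 ± 0.16 log2 units (SE, limma adjusted p = 8.43e-05). GB41760 stood at 9.37 and 11.4 FPKM in L3 queen IP, against 35.1 and 40.4 FPKM in L3 queen input, a difference of -1.37 ± 0.17 log2 units (SE, limma adjusted p = 0.000109). The libraries of the 2 types did not overlap in any of these. GB41284 was listed at 0 in both L3 worker IP libraries and stood at 2.49 and 3.24 FPKM in the inputs, a fitted difference of -2.21 ± 0.19 log2 units (SE, limma adjusted p = 1.22e-05) that depends on the pseudocount.

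**Figure D4:**
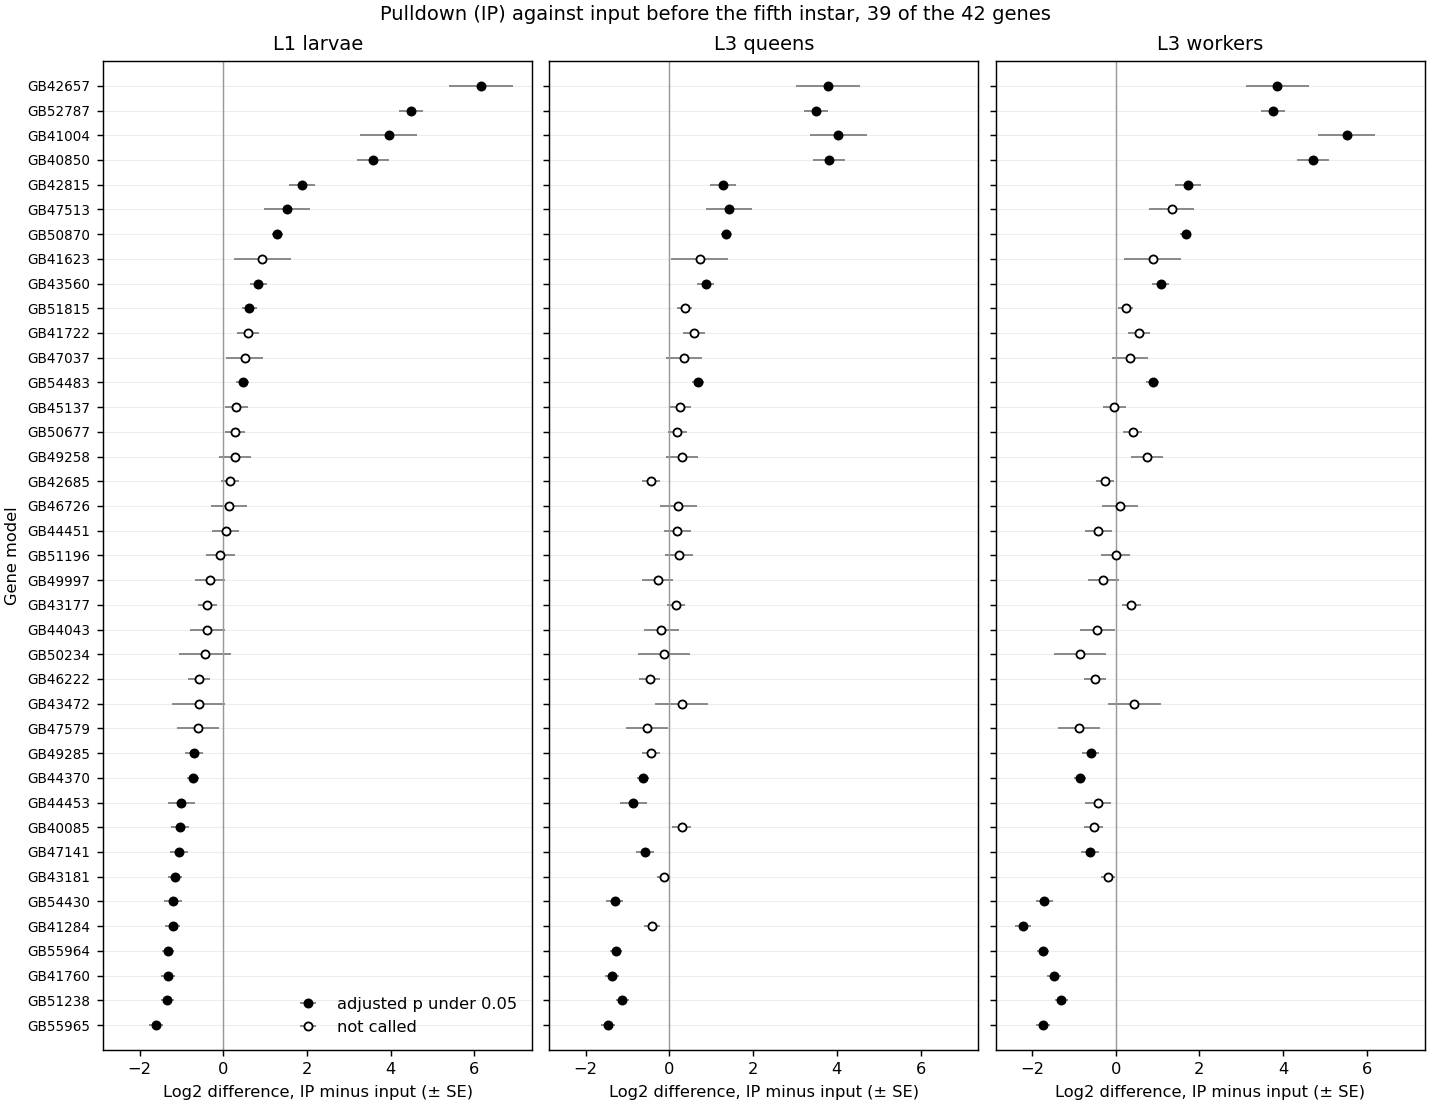
Log2 difference of IP minus input with its standard error (limma) in L1 larvae, L3 queens and L3 workers for the 39 genes tested, ordered by the L1 value; filled points had an adjusted p under 0.05. GB42657, GB52787, GB41004 and GB40850 stand far to the right in all 3 panels, while GB55965, GB51238, GB41760 and GB55964 lie to the left in each.

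Between the L3 castes the difference of IP and input did not pass for any of the 39 genes with limma. Over all models 0.0393% were more enriched in L3 queens and 0.0295% less, 7 models in all. At an unadjusted p under 0.05, 311 models passed, or 3.06% of all models, a smaller share than the threshold itself. GB40085, GB41284 and GB55964 were among them and are named only as a description. GB41284 was listed at 0 in both L3 worker IP libraries. A p that misses the threshold does not show that the castes had equal enrichment.

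Enrichment before L5 and the L5 result in IP can be set side by side. Of the 10 genes enriched at L1, 5 were called higher in L5 queen IP, and of the 12 depleted at L1, 11 were. The difference between these counts was not tested, and the same counts over all models were not computed. At L5 itself the rule used the input, which is the divisor, so the ratio of IP to input is given as a description. The median log2 ratio of mean IP plus 1 to mean input plus 1, on FPKM as deposited, was 0.02 in L5 queens and 0.63 in L5 workers over the 42, against -0.0025 and 0.16 over the 5801 models. In L5 workers the ratio was above 1 log2 unit in 13 of the 42, or 31.0%, against 6.93% of the 5801, and the rule's choice of low worker input favours such ratios.

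The 2 L5 queen replicates differed for some of the genes. The rule takes the lower of the 2 L5 queen inputs, which favours genes with close replicates. The models set beside the 42 also reach down to lower levels. The 2 medians that follow are therefore only a description. The median absolute log2 difference of the 2 inputs was 0.373 over the 42. Over all models with a mean of at least 1 FPKM in L5 queens it was 0.453. The share of all models with a 2-fold gap was not computed. Input replicate 1 was at least 2 times replicate 2 in 7 of the 42, and IP replicate 1 was then also the higher in all 7. Of these 7, 5 belong to the genes high at L1. The reverse, replicate 2 at least 2 times replicate 1, was seen in GB41004 alone, with 7.60 and 20.8 FPKM. GB44453 was the most uneven, with 90.8 and 18.7 FPKM in L5 queen input and 66.2 and 12.5 FPKM in L5 queen IP. Over the 42 genes, the log2 difference of replicate 1 and 2 in input correlated with that in IP at r = 0.754 in L5 queens, 0.877 in L3 queens, 0.448 in L1, 0.402 in L3 workers and 0.201 in L5 workers. Over all models with a mean of at least 1 FPKM in the kind (9398 to 10509 models) the same r was 0.420 in L5 queens, 0.633 in L3 queens, 0.615 in L1, 0.208 in L3 workers and 0.0708 in L5 workers. Same-numbered input and IP libraries of queens thus deviated together, and these correlations are across genes, which share their libraries and are not independent replicates.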

How the data were processed

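The deposited tables hold FPKM computed by the authors, 1 value for each gene model and library, per the file headers. Reads were aligned with HISAT2 2.1.0, per the submitters' processing notes; no source used here names the program behind the FPKM, the annotation or the build. The kit does not mark strand, per the labels' protocols. Depth is unknown, so no counting intervals are given.

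The 42 genes, their groups and the tests were chosen with earlier results of these data known. The genes were selected on FPKM as deposited. For tests, each library was scaled by the median of its ratios to the geometric mean, taken over models above 1 FPKM throughout the libraries fitted. Models whose scaled mean was under 1 FPKM were dropped. The log2 of scaled FPKM plus 1, which understates changes of low genes, entered limma 3.58.1 (R 4.3.3, eBayes with trend), and p-values got the Benjamini-Hochberg adjustment over all models of a fit, with a threshold of 0.05. L5 IP libraries, which have a wider spread, were fitted alone. L3 and L5 IP libraries were fitted together with a weight per instar (arrayWeights). L3 was set against L1 in 6 input libraries, and IP against input in 12 libraries of L1 and L3. Scripts ran in Python 3.11.15 with pandas 2.3.3 and matplotlib 3.10.9, and the fits were tested on simulated data.

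Named genes were the 3 with the highest mean L5 queen input in each profile group, the 2 highest and 2 lowest log2 differences among called genes of each test, neighbouring members, the genes next to the 3-fold limit, and members singled out after their values were seen. Lists of genes by function could not be used, as no ID matched a name. Replicate numbers were taken to pair IP with input at L1 and L3. At those instars the log2 differences of replicate 1 and 2 in the 2 types correlated over all models. The r was 0.615 in L1, 0.633 in L3 queens and 0.208 in L3 workers, all over 0.1. In L5 workers it was 0.0708. The single-gene calls, standard errors and p-values of IP against input come from the fit without this pairing. Counts with the replicate block are given beside them.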

Additional observations from a re-analysis of the deposited data

Results flagged for a closer look

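The caste difference in IP was not the same at L5 and L3 for 24 of the 42 genes, by the limma test of the difference between the instars (adjusted p under 0.05). It was wider at L5 by 4.03 log2 units in GB44453 and 3.93 in GB43181, and by 1.49 in GB41972 and 1.57 in GB55965, the smallest of those called. GB43181 and GB43632 entered the test through L5 queen IP alone, and 22 were called without them. Over the 10421 models tested, 3.71% had a larger difference at L5 and 2.83% a smaller one. All 24 belong to the 29 genes called higher in L5 queen IP. In those 29 both L5 queen IP libraries were above both L5 worker IP libraries, so this order in the 24 is no further result. The rule that chose the genes bounds the L3 difference in the input libraries, so a part of this was set by the choice. Without L5 worker IP replicate 1 the count was 12, and without replicate 2 it was 7.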

How the results depend on the processing

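The rule gave 114 genes with a 2-fold limit, 21 with 4-fold, 89 with a minimum of 2 FPKM, and 75 to 146 when 1 of the 4 L5 input libraries was left out, as it asks both libraries of a caste to pass.

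Calls among the genes, with those over all models after them, were as follows. Queen against worker IP at L5 gave 18 and 147 without a filter and 5 to 30 and 50 to 432 leaving out a library; over all models 594 on FPKM as deposited, 907 with all kinds in 1 fit and 1454 with the replicate block. The difference of instars gave 14 and 333 without a filter and 7 to 27 and 146 to 970 leaving out a library, and 1772 models as deposited. L3 queens against L1 gave 12 and 872 with all kinds in 1 fit and 13 to 17 and 1291 to 1671 leaving out a library. L3 workers against L1 gave 7931 models as deposited, 1954 with all kinds in 1 fit, and 17 to 24 and 2173 to 4088 leaving out a library. IP against input leaving out a library gave 18 to 24 and 4898 to 6149 in L1, 15 to 18 and 4820 to 6088 in L3 queens, and 15 to 19 and 5079 to 6374 in L3 workers, where the replicate block gave 28. The L3 caste difference of IP and input gave 1 gene without a filter and 1 with a weight per library, and over all models 17 with a pseudocount of 5, 45 without a filter, 2 as deposited, 0 with all kinds in 1 fit and 11 with the replicate block; leaving out a library gave 0 to 1 and 3 to 9. The replicate block is a pairing only for IP against input, since elsewhere not every correlation of same-numbered libraries was over 0.1 (IP of L3 and L5 queens 0.0447), so those libraries share only a number; it moved no other count of the genes past 1.5 times.

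GB41284 reversed to -0.76 in the difference of instars with a pseudocount of 0.1, and GB44370 to -0.52 in L3 workers against L1 as deposited. The cause was not tested. Each call of a single gene was checked under each alternative, so a call is counted many times. Under the alternatives that keep every library, 1000 such checks held, 100 missed the threshold and 2 reversed. Fits that leave out a library were checked too. Calls that held everywhere numbered 5 of 29 in L5 IP, 5 of 24 in the difference of instars, 10 of 20 in L3 queens and 11 of 25 in L3 workers against L1, and 14 of 22 (L1), 11 of 17 (L3 queens) and 15 of 17 (L3 workers) in IP against input. Leaving out a library leaves 1 of a kind, which is assumed to vary like the others. With 2 libraries per kind and unknown depth, small differences and low genes are not resolved.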
